A study of Mus musculus with 9 samples.

Results

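The L1, contactin and NCAM cell adhesion molecules were followed by RNA sequencing in the medial ganglionic eminence (MGE) of the mouse, a ventral forebrain zone that gives rise to many cortical interneurons, in embryos with and without deletion of Ctnnb1, which encodes beta-catenin. The 10 genes were taken by symbol: the L1 family (Chl1, L1cam, Nrcam and Nfasc), Ncam1 and Ncam2, the contactins Cntn1, Cntn2 and Cntn4, and Alcam. All 10 were found among the 48526 genes of the table, and 9 of them reached the mean of 10 normalized counts that a gene needed to be tested. Cntn4, with a mean of 8.54, did not. All 9 libraries came from C57BL/6 embryos at embryonic day 14.5 that carried Nkx2.1-cre and Rosa26-YFP, a reporter that marks cells with Cre activity. The 5 knockout libraries were Ctnnb1fl/fl, with 2 floxed alleles. Control replicate 4 was Ctnnb1fl/wt, with 1 floxed allele, and control replicates 1, 2 and 3 carried no floxed allele. Cre driven by Nkx2-1 sequence acts in the Nkx2-1 lineage, so cells of other lineages in a dissected MGE keep the gene. The labels call the samples tissue, while the protocol allows for either harvested cells or a dissected MGE, and no label says that the libraries are from different embryos. Xist and Y-linked transcripts showed male and female libraries in each group, so no group came from 1 embryo alone. The p-values set the difference between the groups against the variation among these libraries, and part of that variation may be technical.

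Members of the L1 family span the membrane once and bind one another, contactins and NCAM through immunoglobulin and fibronectin domains outside the cell, while their short inner tails bind ankyrins and so reach the spectrin skeleton. Contactins have no inner part; a lipid anchor holds them in the membrane, where they pair with L1 proteins or with contactin-associated proteins. NCAM is the main carrier of polysialic acid, a long sugar chain that loosens contact between cells during migration and axon growth. Alcam is a related adhesion molecule of growing axons. Nrcam and L1cam have been described as targets of beta-catenin and TCF in colon cancer cells.

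Library totals ran from 5120585 to 5569444 reads, so depth was alike in the groups. Ctnnb1 was at 9828 ± 197 normalized counts in controls (SD, n = 4) and 6789 ± 828 in knockouts (SD, n = 5), with single knockout libraries at 55.7% to 77.9% of the control mean (exact two-sided permutation test, p = 0.00794). Markers of the labelled tissue were present: the summed level of 9 MGE genes, among them Nkx2-1, Dlx1 and Dlx2, was 19059 to 32594 normalized counts in controls, with control 1 lowest, and 30701 to 38286 in knockouts. Control 1 also stood apart in markers of other tissue. Its summed level of 11 dorsal telencephalon genes, among them Neurod6, Eomes and Neurod2, was 3021 normalized counts, while the other controls were at 134 to 231 and the knockouts at 189 to 639. Its sum of 6 choroid plexus genes, led by Ttr, was 2860, while the other controls were at 60.6 to 124 and the knockouts at 119 to 499. No dorsal marker was at 0 in any library, whereas the choroid plexus genes Folr1, Kl and Kcnj13 were at 0 in some. The members' fold changes are given below with control 1 and, where it moves them, without it.

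Of the 9 members tested, 4 rose in the knockout (Chl1, L1cam, Nrcam and Ncam1), none fell, and 5 did not pass the test (limma on log2(normalized count + 1), Benjamini-Hochberg adjusted p under 0.05). Among all 13780 genes tested, 17.2% were called higher and 17.3% lower. The median log2 fold change, knockout minus control, was 1.05 over the 9 members and -0.01 over all genes tested. In 3 of the 9 tested members, Chl1, Nrcam and Ncam1, every knockout library was above every control library, as it was for 14.5% of all genes tested. The summed level of the 10 members was 2101 to 3084 normalized counts in controls and 3851 to 6044 in knockouts.

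**Figure D1:**
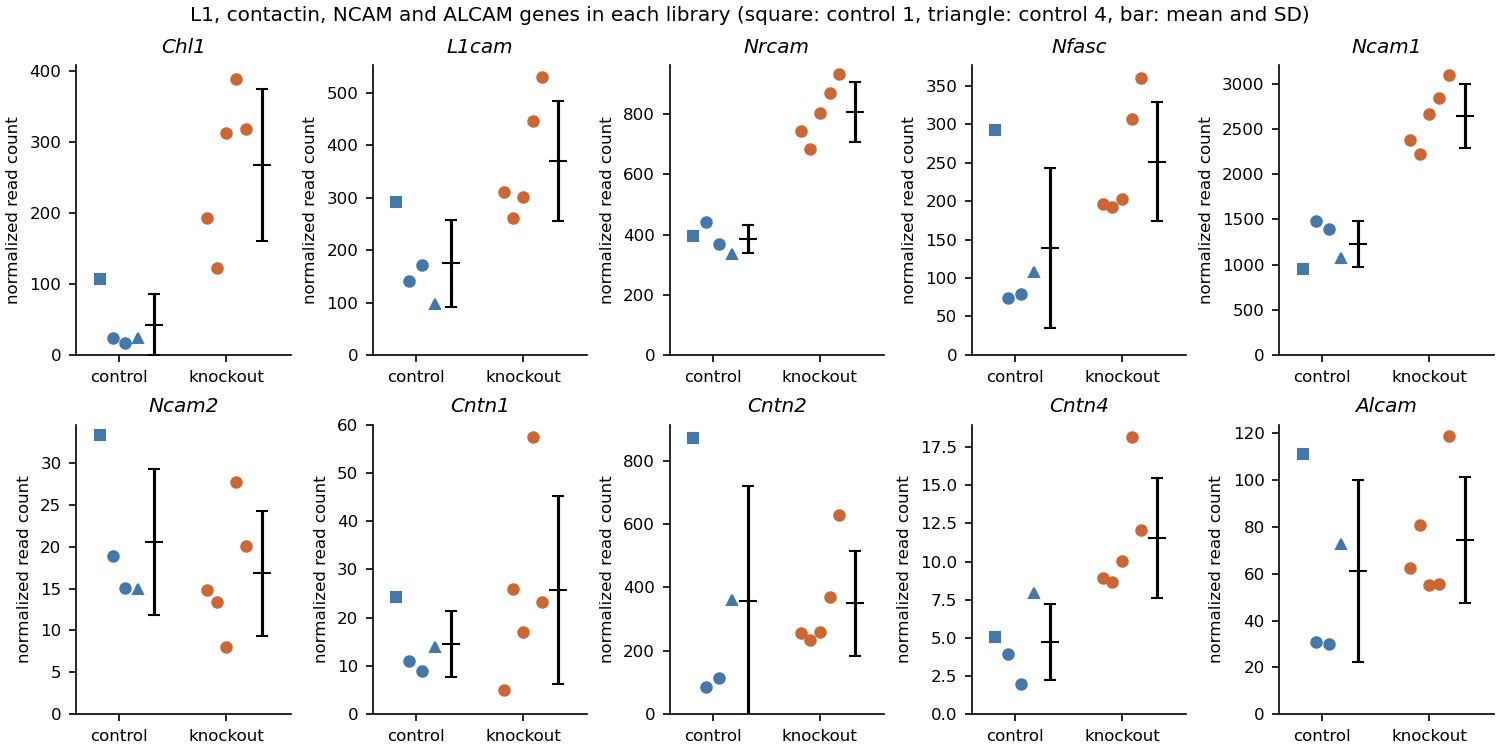
Normalized counts of the 10 members in each of the 4 control and 5 knockout libraries, one panel per gene, and a bar for each group's mean with its SD. Squares mark control 1 and triangles mark the heterozygous control 4. The groups lie apart for Chl1, Nrcam, Ncam1 and Cntn4, while control 1 is the highest control for Chl1, L1cam, Nfasc, Ncam2, Cntn1, Cntn2 and Alcam.

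Chl1, the close homolog of L1, which acts in neurite growth and neuronal positioning, lies on chromosome 6 from 103510586 to 103750211 on the plus strand (mm10). It was at 107.1, 23.8, 16.1 and 23.9 normalized counts in controls 1 to 4 and at 192.9, 123.1, 313.0, 388.5 and 318.4 in knockouts 1 to 5. Control 1 was far above the other 3 controls, and the lowest knockout was still above it. The means were 42.7 ± 43.1 (SD, n = 4) and 267 ± 107 (SD, n = 5), a 6.25-fold ratio, and the log2 fold change was 2.92 (SE 0.589, limma adjusted p = 0.00703), rank 15 of the 13780 genes from the top. Without control 1 it was 3.50.

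Nrcam, the L1 family member that gathers at axon initial segments and nodes, lies on chromosome 12 from 44328885 to 44601964 on the plus strand. The controls held 395.2, 442.0, 369.8 and 334.8 normalized counts and the knockouts 742.8, 685.6, 804.5, 870.7 and 933.0. Both groups were tight and far apart, with control 1 among the other controls. The means were 385 ± 45.1 (SD, n = 4) and 807 ± 98.5 (SD, n = 5), a 2.09-fold ratio. The log2 fold change was 1.06 (SE 0.109, limma adjusted p = 3.17e-05).

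L1cam, the founder of the family and a receptor for axon growth and bundling, lies on chromosome X from 73853778 to 73896105 on the minus strand and shares 100 exonic bases with Arhgap4, a gene on the same strand with a mean of 14.7 normalized counts. It was at 291.1, 141.0, 170.8 and 97.7 normalized counts in the controls and at 310.6, 260.6, 301.9, 445.9 and 531.0 in the knockouts. The groups touched at 1 point: knockout 2 was below control 1, and the other 4 knockouts were above every control. The means were 175 ± 82.9 (SD, n = 4) and 370 ± 114 (SD, n = 5), with a log2 fold change of 1.14 (SE 0.323, limma adjusted p = 0.0242). This call was lost when control 2, control 3, control 4 or knockout 5 was left out, with limma adjusted p of 0.0639, 0.0512, 0.0508 and 0.0598 and log2 fold changes of 0.89 to 1.16. Without control 1 the log2 fold change was 1.42 (limma adjusted p = 0.00309). With embryo sex as a covariate, read from Xist and Y-linked transcripts, the X-linked L1cam had a log2 fold change of 1.08 (SE 0.248, limma adjusted p = 0.00915).

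Nfasc, which encodes neurofascin, the anchor of axon initial segments and nodes, lies on chromosome 1 from 132564690 to 132741797 on the minus strand. Its levels were 293.1, 74.5, 79.4 and 107.6 normalized counts in the controls and 195.8, 192.3, 202.6, 307.1 and 360.7 in the knockouts. All 5 knockouts were above controls 2, 3 and 4, but 3 of them were below control 1. The means were 139 ± 104 (SD, n = 4) and 252 ± 77.5 (SD, n = 5), and the log2 fold change of 1.05 (SE 0.420) did not pass the test (limma adjusted p = 0.0879). Without control 1 the log2 fold change was 1.49, with a limma adjusted p of 0.00101.

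Sequence before a RefSeq start is shown for Nrcam and L1cam, which rose by like amounts and for which a link to TCF has been described. For Cntn1, whose level did not pass the test, the window shown is the only Cntn1 window that holds the TCF/LEF letters. Each is the 250 bases before an annotated RefSeq start (GRCm38.p6), written 5′ to 3′ along the gene's strand, with ATCAAAG in capitals.
Nrcam, chr12:44328635-44328884, plus strand: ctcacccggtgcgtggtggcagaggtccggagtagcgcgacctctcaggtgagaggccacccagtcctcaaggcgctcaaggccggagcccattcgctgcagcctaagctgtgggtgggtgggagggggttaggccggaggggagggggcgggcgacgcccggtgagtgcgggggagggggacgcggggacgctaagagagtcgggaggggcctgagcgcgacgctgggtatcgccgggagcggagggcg
L1cam, chrX:73880835-73881084, minus strand: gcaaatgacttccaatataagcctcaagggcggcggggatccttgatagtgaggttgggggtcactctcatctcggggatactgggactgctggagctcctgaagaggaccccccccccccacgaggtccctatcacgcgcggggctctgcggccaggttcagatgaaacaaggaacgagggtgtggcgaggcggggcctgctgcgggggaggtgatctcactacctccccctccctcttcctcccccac
Cntn1, chr15:92050915-92051164, plus strand: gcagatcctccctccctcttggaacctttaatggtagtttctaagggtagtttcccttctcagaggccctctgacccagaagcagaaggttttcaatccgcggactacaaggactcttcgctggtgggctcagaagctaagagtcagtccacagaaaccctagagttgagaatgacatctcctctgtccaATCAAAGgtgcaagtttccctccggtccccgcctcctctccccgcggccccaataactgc
The windows were 72.4%, 63.2% and 53.6% G and C, against a median of 52.4% over all windows. RefSeq gave 14 windows for 9 of the 10 members, and Ncam1 was not matched. The L1cam windows overlap each other, as do the Cntn4 windows, so the 14 are not separate promoters. The L1cam, Nfasc and Cntn4 windows lie inside the GENCODE gene spans, so sequence before the outermost annotated start of these genes was not searched. Both strands were searched for the TCF/LEF letters ATCAAAG and for the inner part CAAAG on its own, so that every match to the longer motif also counts for the shorter. The longer motif was found in 2 of the 14 windows and in 3.21% of all 32851 windows of the same length. It lay at -60 to -54 from the start in a Cntn1 window and at -125 to -119 in a Cntn4 window. The shorter motif was found in 4 of the 14 windows and in 48.6% of all windows, and a Chl1 window that overlaps an annotated exon held 4 matches to it. Neither motif was found in the other Cntn1 and Cntn4 windows or in the Nrcam, L1cam or Nfasc windows. A match describes letters only and does not show binding.

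Ncam1, the neural cell adhesion molecule, lies on chromosome 9 from 49502136 to 49798925 on the minus strand. It shares 417 exonic bases with the antisense gene Gm11149, whose mean was 0.772 normalized counts. Ncam1 was at 953.1, 1479.9, 1392.7 and 1068.2 normalized counts in the controls and at 2371.9, 2227.9, 2664.2, 2842.6 and 3097.1 in the knockouts. The groups were far apart, and control 1, the highest control for 7 other members, was the lowest for Ncam1. The means were 1224 ± 253 (SD, n = 4) and 2641 ± 351 (SD, n = 5), a 2.16-fold ratio, with a log2 fold change of 1.12 (SE 0.136, limma adjusted p = 9.83e-05).

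Its paralog Ncam2, best known from olfactory axons, lies on chromosome 16 from 81200697 to 81626828 on the plus strand. It was low, at 33.4, 18.9, 15.1 and 14.9 normalized counts in the controls and at 14.8, 13.5, 8.0, 27.7 and 20.2 in the knockouts. The groups overlapped over most of their range, and the log2 fold change was -0.30 (SE 0.346, limma adjusted p = 0.526), or -0.05 without control 1. Ncam2 was the only tested member with a value below 0.

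Cntn2, a contactin of early growing axons that binds L1cam and Nrcam, lies on chromosome 1 from 132509427 to 132543256 on the minus strand. It had the widest spread in the controls, at 870.2, 85.4, 113.5 and 358.7 normalized counts, while the knockouts were at 256.2, 232.7, 260.8, 371.2 and 629.7. Control 1 was the highest of all 9 libraries, the heterozygous control 4 lay within the knockout range, and every knockout was above controls 2 and 3. The means were 357 ± 363 (SD, n = 4) and 350 ± 165 (SD, n = 5), and the log2 fold change was 0.47 (SE 0.724, limma adjusted p = 0.655). Leaving out 1 library moved it from -0.02 without control 2 to 1.10 without control 1 (limma adjusted p = 0.187), and it passed the test in none of these fits. The dorsal marker sum was highest in control 1 and, at 134 normalized counts, lowest in control 4, the second highest control for Cntn2; the part of such tissue in the Cntn2 level was not tested.

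Cntn1, a contactin of axons and of nodal borders, lies on chromosome 15 from 92051165 to 92341967 on the plus strand. It was at 24.3, 10.9, 9.0 and 14.0 normalized counts in the controls and at 4.9, 26.0, 17.1, 57.4 and 23.2 in the knockouts. The knockouts held both the lowest and the highest library, and the log2 fold change was 0.53 (SE 0.544, limma adjusted p = 0.485). It was 0.16 without knockout 4, 0.35 without control 3, 0.79 without control 1 and 0.98 without knockout 1 (limma adjusted p = 0.0656). Cntn4, a contactin known from the wiring of olfactory and visual axons, lies on chromosome 6 from 105677660 to 106699310 on the plus strand. Its levels were 5.1, 4.0, 2.0 and 8.0 normalized counts in the controls and 8.9, 8.7, 10.03, 18.2 and 12.1 in the knockouts. All 5 knockouts were above all 4 controls at these very low counts, with means of 4.75 ± 2.49 (SD, n = 4) and 11.6 ± 3.94 (SD, n = 5). When no filter on low values was used, Cntn4 had a log2 fold change of 1.19 (SE 0.402, limma adjusted p = 0.0243). For such genes that fit takes the SE almost wholly from the variance trend over all genes, and hardly from the gene's own spread. Ncam1, for example, had a limma p of 1.05e-34 in it, against 8.77e-07 in the main fit. The p for Cntn4 is therefore no firm call.

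Alcam, which binds itself on growing axons, lies on chromosome 16 from 52248996 to 52454074 on the minus strand. It was at 111.2, 30.8, 30.1 and 72.7 normalized counts in the controls and at 62.3, 80.8, 55.2, 55.5 and 118.9 in the knockouts. As with Cntn2, controls 1 and 4 were the high controls, and every knockout was above controls 2 and 3. The log2 fold change was 0.43 (SE 0.400, limma adjusted p = 0.434), and it ran from 0.17 without control 3 to 0.79 without control 1 (limma adjusted p = 0.0905).

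Against controls 2 and 3 only, which leaves out control 1 and the heterozygous control 4, 7 of the 9 tested members rose, with Nfasc, Cntn2 and Alcam beside the 4 named above. In that comparison 9.94% of all genes tested were called higher. Nfasc had a log2 fold change of 1.65 (limma adjusted p = 0.00272), Cntn2 of 1.71 (SE 0.382, adjusted p = 0.0228) and Alcam of 1.20 (SE 0.280, adjusted p = 0.0133). Against these controls, the mean knockout level was 13.4 times as high for Chl1, 3.27 times for Nfasc, 3.52 times for Cntn2 and 2.45 times for Alcam. Nrcam was at 0.99 and Ncam1 at 0.87, each a little below its value against all 4 controls, and both passed the test. Cntn1 (0.94, limma adjusted p = 0.397) and Ncam2 (-0.11, adjusted p = 0.888) did not pass. This comparison rests on 2 control libraries, chosen after earlier results of these data were known. Controls 1 and 4 were the 2 highest controls for Nfasc, Cntn2 and Alcam, so leaving them out had to raise the fold changes of these genes. Their calls here are therefore no separate support for a rise.

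**Figure D2:**
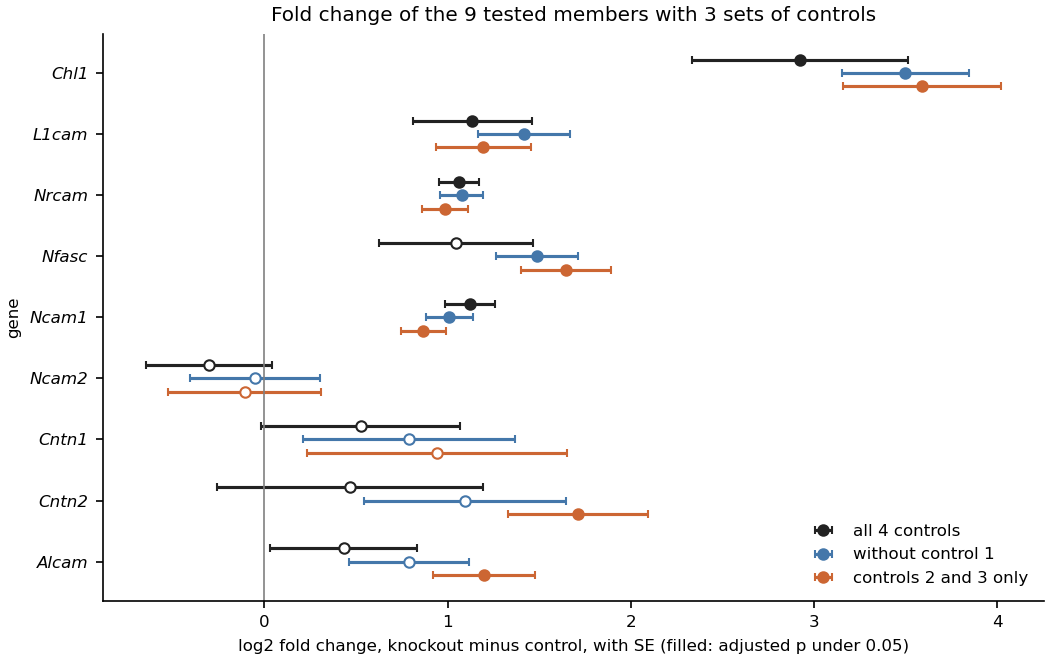
Log2 fold change, knockout minus control, of the 9 tested members with the SE as a bar, against all 4 controls, without control 1, and against controls 2 and 3 only. Cntn2, Alcam, Nfasc, Chl1, L1cam, Cntn1 and Ncam2 have higher values when control 1 is left out, while Nrcam stays near 1 and Ncam1 is somewhat lower.

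The members that were high in control 1 were set beside the marker sums. Chl1, L1cam, Nfasc, Ncam2, Cntn1, Cntn2 and Alcam all had their highest control value there, in the library with 3021 normalized counts of dorsal telencephalon markers and 2860 of choroid plexus markers. Among the knockouts, replicate 5 was the highest for 6 members (L1cam, Nrcam, Nfasc, Ncam1, Cntn2 and Alcam), while replicate 2 was the lowest for 7 members. Replicate 5 had the highest dorsal marker sum, 639. It also had the highest postmitotic neuron sum (29843), the lowest ventricular zone sum (10997) and the lowest Ctnnb1, at 55.7% of the control mean. Knockout replicate 2 had the lowest neuron sum (23358), and the highest ventricular zone sum (13584) and Ctnnb1 (77.9%) among the knockouts. Replicate 4 was the highest for the other 4 (Chl1, Ncam2, Cntn1 and Cntn4), and its dorsal marker sum was 372. Its level of Pax6, which was listed with the ventricular zone markers, was 493 normalized counts, against 22.8 to 102 in the other knockouts. Pax6 was at 234 in control 1 and at 23.8, 21.1 and 4.98 in controls 2, 3 and 4. The ventricular zone sum of knockout replicate 4 was 13071, within the range of the other knockouts. The part of other tissue, of neurons and progenitors, or of the Ctnnb1 level in these member levels was not tested. Of the 11 dorsal markers none passed the test in either direction.

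**Figure D3:**
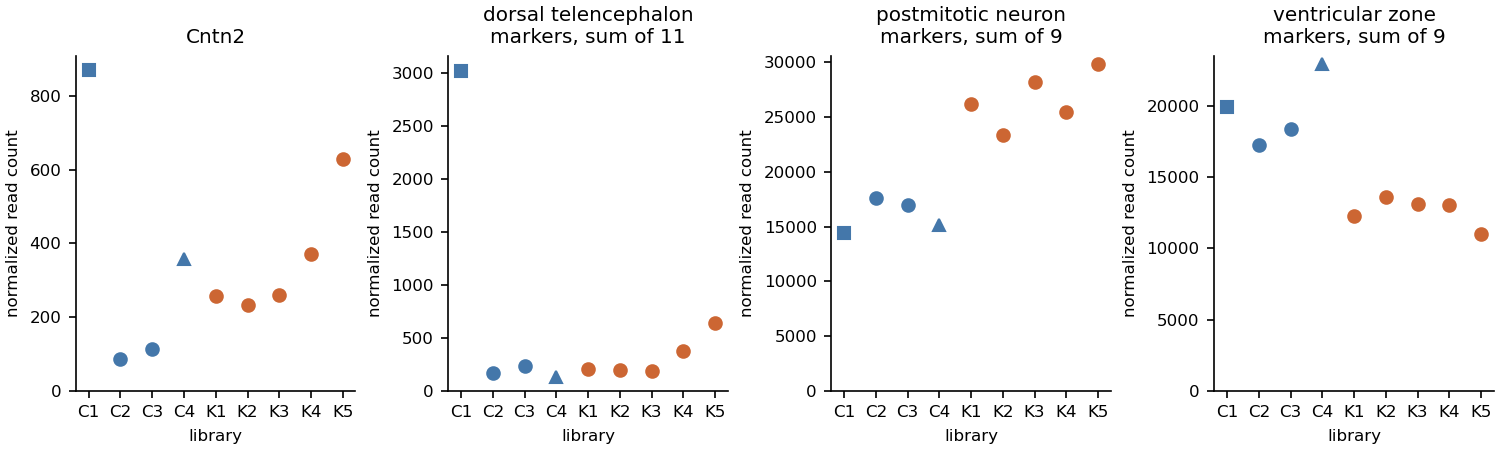
Normalized counts of Cntn2 in each library beside the summed normalized counts of the dorsal telencephalon, postmitotic neuron and ventricular zone markers, with a square for control 1 and a triangle for control 4. Control 1 is highest for Cntn2 and for the dorsal telencephalon sum, whereas control 4 is within the knockout range for Cntn2 and lowest for that sum.

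The members that rose did so beside markers of neurons. Of 9 markers of postmitotic neurons, led by Tubb3, 6 rose and none fell (median log2 fold change 0.82), with sums of 14387 to 17609 normalized counts in controls and 23358 to 29843 in knockouts. Of 9 ventricular zone markers 5 fell and none rose (median -0.76), with sums of 17225 to 22922 in controls and 10997 to 13584 in knockouts. Their part in the rise of Chl1, L1cam, Nrcam and Ncam1 was not tested, and in bulk libraries more cells of a type and more RNA per cell cannot be told apart. Of 5 oligodendrocyte lineage markers 1 rose, and of the 5 endothelial and 4 tested microglial markers none passed in either direction. The median log2 fold changes were 0.21 for the oligodendrocyte lineage, 0.07 for the endothelial and -0.60 for the tested microglial markers.

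Levels were compared between genes per kilobase of exonic length. Ncam1 was the most abundant member in both groups, at 141 ± 29.2 normalized counts per kilobase in controls (SD, n = 4) and 305 ± 40.5 in knockouts (SD, n = 5), and its lowest library was above the highest library of the next member in both. In knockouts it was followed by Nrcam (60.4 normalized counts per kilobase), L1cam (50.4), Cntn2 (37.6), Chl1 (21.7), Nfasc (17.8), Alcam (10.5), Cntn1 (2.73), Ncam2 (1.49) and Cntn4 (1.36). Of the other neighbours in this order, only Alcam and Cntn1 had ranges that did not overlap. In controls Cntn2 stood second on average, but in only 2 of the 4 libraries was it above Nrcam, and Chl1 came seventh at 3.48.

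As a share of the summed per-kilobase level of the 10 members, the L1 family held 25.1% ± 3.82 in controls (SD, n = 4) and 29.3% ± 1.73 in knockouts (SD, n = 5). The share of Ncam1 and Ncam2 was 57.2% ± 16.1 and 60.7% ± 3.24, with the lowest control share, 34.9%, in control 1. The contactin share ranged from 4.37% to 29.9% in controls and was 7.94% ± 1.99 in knockouts, so that the control range covered every knockout. Within these shares Chl1 was at 1.22% in controls and 4.17% in knockouts. The shares are given as a description, with no test.

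**Figure D4:**
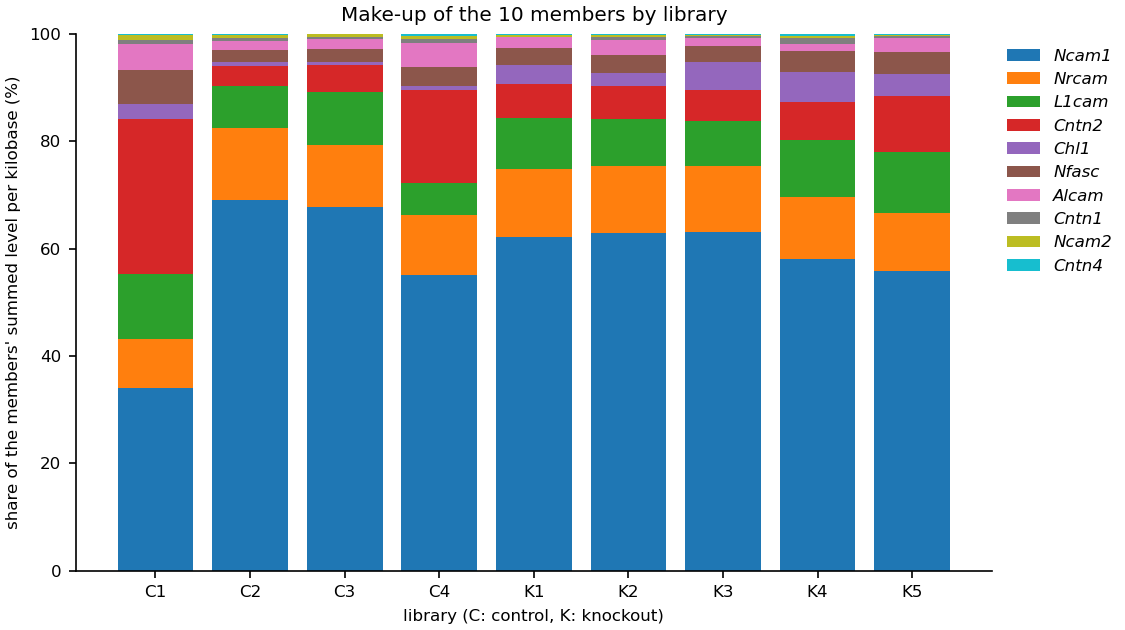
Share, in percent, of each member in the summed normalized counts per kilobase of the 10 members, as one stacked bar per library. Ncam1 has the largest share in every library, and Cntn2 takes a larger share in controls 1 and 4 than in the other libraries.

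Genes that work with these molecules or are related to them were counted in 7 partner lists, with 78 genes tested, of which 34 rose and 9 fell. Of these 78, 25 are from related immunoglobulin-fold adhesion families and are not known here as partners. Over all genes tested, 17.2% were called higher and 17.3% lower, the shares to set beside the counts of each list. The contactin-associated proteins, which pair with contactins in the membrane, had 3 of 4 tested genes higher and none lower, with a median log2 fold change of 2.78. Cntnap4 was at 30.8 ± 4.71 normalized counts in controls (SD, n = 4) and 206 ± 66.4 in knockouts (SD, n = 5), with a log2 fold change of 2.64 (SE 0.249, limma adjusted p = 3.92e-05). Cntnap3 rose by 2.93 and Cntnap5c by 3.84 on the log2 scale, while Cntnap2, the partner of Cntn2, was at 0.42 (limma adjusted p = 0.496). None of the other contactins reached the filter. Cntn3 was at 13.8 ± 4.97 normalized counts in controls (SD, n = 4) and 6.06 ± 2.31 in knockouts (SD, n = 5). With no filter, the setting in which Cntn4 passed, Cntn3 had a log2 fold change of -1.05 (SE 0.387, limma adjusted p = 0.0458). The limit given for Cntn4 in that fit holds for this p too. Cntn5 and Cntn6 were below 5 on average in both groups.

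On the inner side, 6 of 10 ankyrin, spectrin and ERM genes rose and 2 fell (median 0.51). Ank3, the ankyrin of axon initial segments that binds Nrcam and neurofascin, was at 345 ± 32.8 normalized counts in controls (SD, n = 4) and 1231 ± 316 in knockouts (SD, n = 5), a log2 fold change of 1.80 (SE 0.160, limma adjusted p = 2.95e-05). The spectrins Sptan1 and Sptbn4 rose by 0.69 and 1.88 on the log2 scale. Moesin (Msn), which links L1 to actin, fell by 0.92, and Ank2 fell by 0.40, although the call for Ank2 was lost without control 4 (limma adjusted p = 0.0577). Of the 15 effectors and sheddases, 8 rose and 1 fell (median 0.33), among them Dcx at 1.33, Pak1 at 0.68, Src at 0.52 and Dpysl2 at 0.45. The gene that fell, the sheddase Adam17, was at -0.28 and lost its call when any of 8 of the 9 libraries was left out, control 2 being the exception, with limma adjusted p of 0.0540 to 0.143.

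For the sugar chain of NCAM, both polysialyltransferases rose. St8sia2, the embryonic enzyme, was at 796 ± 190 normalized counts in controls (SD, n = 4) and 1862 ± 270 in knockouts (SD, n = 5), with a log2 fold change of 1.24 (SE 0.157, limma adjusted p = 0.000186), and St8sia4 was at 0.80 (SE 0.148, adjusted p = 0.00112). The groups did not overlap for either gene. Cmas, Gne and Nans, which make the sialic acid donor, did not pass the test, at 0.19, 0.18 and 0.08.

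Among the ligands and receptor partners 6 of 19 tested genes rose and 2 fell (median 0.28). Of the 2, Ptprz1 lost its call without control 2, control 3, control 4 or knockout 3 (limma adjusted p of 0.0567 to 0.0716). Lgi1, a secreted synaptic protein, was at 2.11, Aplp1, of the amyloid precursor family, at 1.32, and the matrix protein Tnr at 1.23, whereas the growth factor midkine (Mdk) fell by 0.74. Among 25 tested genes of related immunoglobulin-fold adhesion families 9 rose and 4 fell, with a median of -0.05; without knockout 4, 7 fell. Kirrel3 was at 1.87, Cadm3 at 1.51, Negr1 at 1.41 and Cadm4 at 0.85. Set beside the -0.01 over all genes tested, the medians of these lists are descriptions, with no test of the lists.

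**Figure D5:**
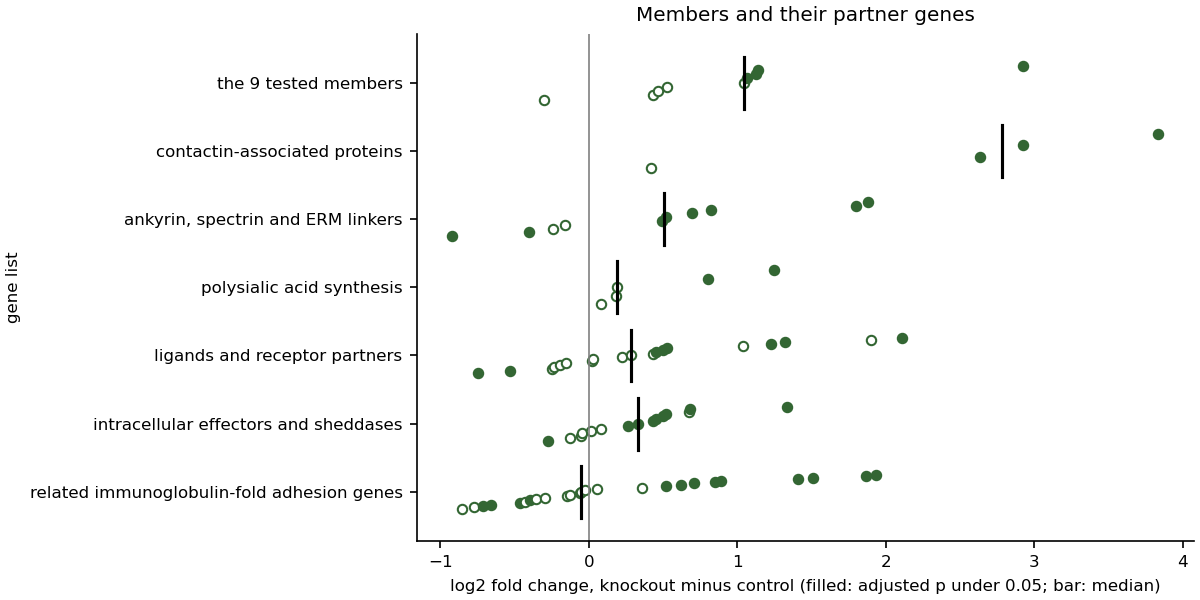
Log2 fold change, knockout minus control, of the 9 tested members and of every tested gene in 6 partner lists, one row per list, with filled points for genes past an adjusted p of 0.05 and a bar at each median. The contactin-associated proteins lie farthest to the right, with a median of 2.78, and the related immunoglobulin-fold genes spread on both sides of 0.

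For each member the gene with the most similar level across the 9 libraries was found among the 9601 other genes that averaged 50 normalized counts or more. Pearson's r on log2(normalized count + 1) was 0.998 for Ncam1 with Lpin1, 0.995 for Nrcam with Kidins220, 0.994 for Cntn4 with Nsf, 0.985 for Chl1 with Gpr27, 0.980 for Nfasc with Rbfox3 and 0.977 for L1cam with Tspan7. Nfasc and Rbfox3, a marker of mature neurons, were both higher in control 1 than in controls 2 to 4, Rbfox3 at 115 against 17.9 to 25.1 normalized counts. Cntn2 and Alcam had the same nearest gene, Zfp622, at 0.947 each, and the values for Ncam2 with Dtnb and Cntn1 with Prkaa2 were 0.948 and 0.913. These correlations hold the group difference and the library differences described above and are given as a description, since each is the closest of many genes compared.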

How the data were processed

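The authors deposited 1 table of normalized counts per Ensembl gene for the 9 libraries, a signal that is never negative: as the values show, counts divided by 1 size factor per library (0.989 to 1.05). The submitters' processing notes name the mm10 build, DESeq2, R 3.4.0, HTSeq 0.9.1 and TopHat2 2.1.1. Annotation release and strandedness of the counting were not given in the sources used here. Libraries were made from 500 ng of RNA, per the labels' protocols. All values above 0 were within 0.01 of a whole multiple of 1 step per library, and the totals count those steps as reads; no count model was fitted to them. Gene positions, counted from 1, and exonic lengths are from GENCODE M21 (mm10); counts cover all isoforms of a gene.

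Knockouts were compared with controls by limma 3.58.1 (trend and robust, statmod 1.5.0, R 4.3.3), two-sided, on log2(normalized count + 1), which understates the change of low genes, over the 13780 genes that averaged 10 or more, with Benjamini-Hochberg adjustment over all of them and a threshold of 0.05. Fits that left out libraries kept the same genes. The procedure was tested on simulated data with the same dispersion for every gene and no outlying library. That test does not cover a library such as control 1. Alternatives were pseudocounts of 0.5 and 8, no filter or a minimum mean of 50, scaling by TMM or upper quartile, plain limma (neither trend nor robust), quality weights per library, a replicate block, embryo sex, an exonic length correction, controls 2 and 3 only, each library left out, and an absolute log2 fold change of at least 1. Named were all members, Ctnnb1, up to 4 called genes with the smallest p per partner list (1 where none passed), up to 3 genes of highest mean per marker list, and the most similar gene per member. A gene that this rule took is not reported here by name. Genes named beyond this, such as Cmas, Gne, Nans, Cntnap2, Cntn3, Cntn5, Cntn6, Msn, Ank2, Ptprz1, Adam17, Pax6 and the choroid plexus genes at 0, were picked with their values in view. The members and lists were chosen with earlier results of these data known.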

Additional observations from a re-analysis of the deposited data

Results flagged for a closer look

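In 22 groups of values (the 10 members and Ctnnb1, in controls and in knockouts), 2 held a library far from the others by Dixon's test, which chance gives in about 1 of 20 groups. Chl1 was at 107.1 normalized counts in control 1 against 16.1 to 23.9 in the other 3 controls. Nfasc was at 293.1 normalized counts in control 1 against 74.5 to 107.6 in the others. Both are the same library, the one with the highest dorsal telencephalon and choroid plexus marker sums; the part of such tissue in these 2 values was not tested.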

How the results depend on the processing

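The calls for Nrcam and Ncam1 held under all 21 alternatives, and no member's call reversed. The count of 4 members higher became 7 against controls 2 and 3 only. With the replicate block it became 2, Nrcam and Ncam1, with Chl1 at 2.83 (limma adjusted p = 0.0783) and L1cam at 0.99 (adjusted p = 0.127); in that fit knockout 5 has no partner and adds nothing. Same-numbered libraries had correlations of their deviations from -0.117 to 0.137. These values gave no sign that the numbers pair the libraries, but so few pairs cannot exclude it. L1cam also missed the threshold with no filter (adjusted p = 0.0845), and Nfasc passed with library quality weights (1.21, adjusted p = 0.0209). Over all genes, 1370 were higher and 1108 lower against controls 2 and 3 only, and 583 and 256 with an absolute log2 fold change of at least 1, under which the partner lists held 14 higher and 0 lower. Leaving out 1 library at a time gave 5 to 13 genes of the partner lists lower, with 5 without control 4. No scaling moved the median of all genes by over 0.1. Counts below about 10, as for Cntn4, limit what these depths can show.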
